A study of Mus musculus with 19 samples.

Results

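The samples described here are the 7 angiosarcomas of a mouse array series, 7 of its 19 samples, taken as every array whose tissue type is given as tumor. The tumors carried the genotype aP2-Cre/+;DicerFlox/-, in which Cre recombinase is driven by the promoter of aP2 (Fabp4, a fatty acid carrier of adipocytes and of some endothelial cells) and acts on a floxed allele of Dicer, the enzyme that cuts precursor hairpins into mature microRNAs, beside a null allele. The other 12 samples were wild-type tissue, 4 aortas, 4 quadriceps femoris muscles and 4 sternocleidomastoid muscles, so that tissue and genotype differ together between the tumors and every normal group. All 19 samples had the mixed C57Bl/6 and 129X1/SvJ background. Age, sex, animal identity, site of the tumor and any batch are missing from the labels, and nothing says that the tumors came from separate animals, so the p-values below measure only the spread between these samples. Each sample was measured on 1 array. The question was how far the 7 tumors differ from each other, gene by gene, compared with the spread within each normal group, and no tumor was tested against another.

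Angiosarcoma is a malignant tumor of cells that resemble the lining of blood vessels. Endothelial cells carry adhesion molecules such as PECAM1 and VE-cadherin, are guided by VEGF, apelin and Notch signals when vessels sprout, and divide little in the adult. A piece of tumor also holds whatever lies in and around it, such as blood, immune cells, fat and muscle, and a bulk array reads all of them together.

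The labelled tumor type was checked against endothelial markers. The mean of 31 pan-endothelial genes was 9.81, 9.06, 9.91, 9.40, 9.34, 9.69 and 8.91 log2 intensity units in tumors 1 to 7, against 7.94 in aorta, 7.43 in quadriceps and 7.49 in sternocleidomastoid, so that every tumor lay above every normal group mean. Pecam1, an endothelial adhesion molecule, ran from 10.99 to 12.17 in the tumors, with 9.68 ± 0.08 (SD, n = 4) in aorta. Mki67, a marker of dividing cells, ran from 7.92 in tumor 7 to 9.44 in tumor 4, with 5.87 ± 0.41 (SD, n = 4) in aorta. Dicer1 read 8.62, 8.17, 8.71, 8.47, 8.74, 8.80 and 8.18 in tumors 1 to 7, a range that holds the mean of aorta (8.23 ± 0.16), quadriceps (8.76 ± 0.14) and sternocleidomastoid (8.42 ± 0.10; SD, n = 4 each). Whether its probe set lies in the deleted part of the gene is unknown here, and the value does not check the genotype. Fabp4 was 11.61, 11.33, 11.80, 12.22, 12.70, 12.50 and 9.78 in tumors 1 to 7, lowest in tumor 7.

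The deposited values were log2 intensities, with array medians between 5.35 and 5.48, and 22180 genes were compared. Pairs of tumors correlated over these genes with r from 0.936 to 0.983, while pairs within the normal groups gave 0.983 to 0.994. The number of arrays limits the precision. The names of tumors 1 to 4 carry the numbers 67, 69, 70 and 72, below those of the normal samples, and those of tumors 5 to 7 carry 97, 98 and 99, above them. No label says whether the sets were processed apart. A difference of 1 on the log2 scale is a doubling of intensity.

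The tumors differed from each other more than the normal samples of a group did. The median SD of a gene was 0.212 among the 7 tumors, 0.155 among aortas, 0.143 among quadriceps muscles and 0.157 among sternocleidomastoid muscles. An SD of at least 0.5 was reached by 2560 genes among the tumors (11.5% of 22180), against 366 in aorta, 511 in quadriceps and 366 in sternocleidomastoid. An SD of at least 1 was reached by 500 genes among the tumors (2.25%), and by 54, 86 and 45 genes in the same normal groups. The SD was 0.138 in the dimmest decile of genes and 0.286 in the brightest decile among the tumors, while that of the normal groups went from 0.179 to 0.133.

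**Figure D1:**
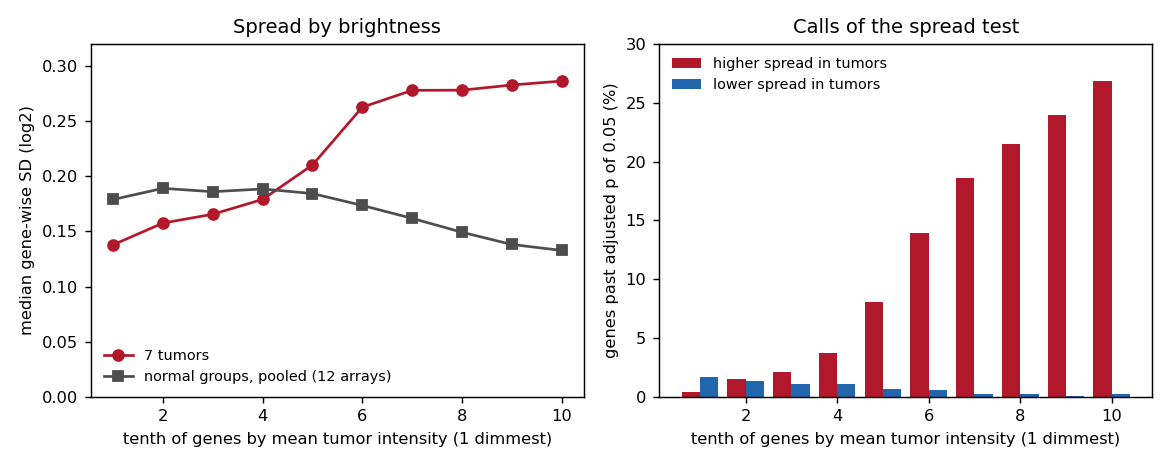
Left, the median SD per gene (log2 units) among the 7 tumors and within the 3 normal groups pooled, for deciles of genes by mean tumor intensity; right, the percentage of genes in each decile past an adjusted p of 0.05 in the test of spread. The tumors lie below the normal groups in the dimmest deciles and above them in the brightest, where 26.8% of genes passed with a higher spread in tumors.

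A test of spread was fitted to every gene with limma, on the absolute deviation of each array from its group mean, comparing tumors with the mean of the 3 normal groups. With Benjamini-Hochberg adjustment over all genes, 2674 genes passed with a higher spread among tumors (12.1% of those tested) and 160 with a lower spread (0.721%). The share with a higher spread rose from 0.406% in the dimmest decile to 26.8% in the brightest. Counts in the gene lists below are to be read beside the 12.1% and this rise with brightness. The genes with a higher spread had a median SD of 0.51 in tumors and 0.14 in the normal groups. This count depends on the test. With deviations from the group median, 1 gene passed as higher and 4 as lower (3420 and 430 at an unadjusted p below 0.05), and with squared deviations 166 and 19 passed. Against aorta alone 493 genes passed as higher, and with the sets of tumors 1 to 4 and 5 to 7 each centred on its own mean 2186 did. The genes changed as well: 490 of the 2674 were called against aorta alone and 1642 with the sets centred. On simulated data with known spreads, deviations from the median recovered none of the altered genes, squared deviations few and deviations from the mean more, with a share of false calls above the nominal threshold for the last. The gene that passed under deviations from the median was Kcne3, a potassium channel subunit found in sprouting endothelium, whose values were 8.49, 8.03, 7.73, 6.81, 4.95, 5.26 and 4.94 in tumors 1 to 7, against 4.75 in aorta. Tumors 1 to 4 were thus high and tumors 5 to 7 near the aortic level. This division is also that of the numbers in the tumors' names, and its cause was not tested. Kcne3 was singled out after its values were seen.

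The genes of largest spread were named by their SD across the tumors, so these SDs describe the ranking and do not test it. Among the 20 genes with the largest SD, 12 varied with the fat genes described next (Ucp1, Pon1, Cidec and Lep among them), 4 encode parts of skeletal muscle, 2 lie on the Y chromosome, and the others were Ptgs2 and Retnlg. The last gene among the 500 most variable had an SD of 1.0015, the next gene one of 0.998, and the largest SD was that of Ucp1, 2.98.

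Fat genes separated tumors 4, 5 and 6 from the others. The mean of 21 general adipocyte genes was 7.39, 6.86, 6.70, 9.27, 10.86, 9.92 and 6.97 in tumors 1 to 7, against 10.92 in aorta, 8.82 in quadriceps and 9.27 in sternocleidomastoid, so that tumor 5 was at the level of the aorta samples. The median tumor SD of the list was 1.67, against 0.212 over all genes, and 18 of its 21 genes passed as more spread in tumors. In bulk tissue fewer adipocytes and less RNA per adipocyte cannot be told apart. The aorta samples were also high in heart muscle genes, with a list mean of 8.69 against 6.28 in quadriceps and 6.40 in sternocleidomastoid. Their brown adipocyte mean was 9.97, against 7.09 and 8.68 in the same muscles. Aorta is thus not read here as vessel wall alone. Cidec, a lipid droplet protein, was 7.92, 5.76, 6.00, 10.06, 11.77, 10.98 and 6.45 in tumors 1 to 7, against 11.80 ± 0.14 in aorta and 9.26 ± 1.29 in quadriceps (SD, n = 4 each). Its deviation from the group mean was 1.78 ± 0.31 (SE) larger in tumors than in the normal groups (limma, adjusted p = 0.0021). Lep, the adipocyte hormone leptin, was 9.50 in tumor 5 and 9.22 in tumor 6 and between 3.73 and 6.11 in the other tumors, against 7.13 in aorta. Plin1, which coats the lipid droplet, Retn, the adipokine resistin, and Adipoq, the hormone adiponectin, were all highest in tumor 5. Slc2a4, the insulin-regulated glucose transporter shared by fat and muscle, was the least variable member, with an SD of 0.86.

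Brown fat genes did not follow the general adipocyte genes in every tumor. Ucp1, the uncoupling protein that makes heat in brown fat, was 4.70, 4.39, 4.75, 11.08, 10.47, 4.77 and 4.81 in tumors 1 to 7. It was high in tumors 4 and 5 and at the low level in tumor 6, in which Cidec and Lep were high. Aorta had 12.77 ± 0.08 and sternocleidomastoid 11.22 ± 0.83 (SD, n = 4 each). Pon1, a lactonase carried on lipoprotein particles, showed the same division, with 9.50 in tumor 4 and 10.13 in tumor 5 and at most 4.17 in the other tumors. The spread of Ucp1 was 1.82 ± 0.46 (SE) higher in tumors (limma, adjusted p = 0.016), and neither Ucp1 nor Pon1 passed when tumor 4 or tumor 5 was left out. Cidea, a droplet protein of brown fat, was 9.41 in tumor 4, 9.99 in tumor 5 and 7.30 in tumor 6, and at most 4.70 elsewhere. Ppargc1a, a coactivator of mitochondrial genes, was higher in tumor 4 (8.31) than in tumor 5 (7.32). Of 14 brown adipocyte genes 7 passed as more spread in tumors, while Fabp3, a fatty acid carrier also of muscle, stayed between 8.74 and 9.40.

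Genes of oxidative phosphorylation, which encode the respiratory chain, had the same highest tumors. Their mean over 27 genes was 9.55 in tumor 5 and 9.04 in tumor 4, and 8.39 to 8.64 in the other tumors, against 10.55 in aorta. Of the 27, 18 passed as more spread in tumors. Sdha, a subunit of succinate dehydrogenase, was 11.19 in tumor 5 and 9.69 in tumor 7, a difference in deviation from the normal groups of 0.47 ± 0.08 (SE; limma, adjusted p = 0.0013). The part of adipocyte content in these values was not tested.

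Skeletal muscle genes were lowest in tumors 5 and 6, which had the highest general adipocyte means, although tumor 3 was low in both lists. The mean of 25 genes of skeletal muscle was 8.77, 9.74, 6.81, 8.30, 5.48, 5.75 and 8.79 in tumors 1 to 7, against 11.83 in quadriceps and 6.88 in aorta. Tumors 2, 7, 1 and 4 thus lay between aorta and muscle, tumor 3 at the level of aorta and tumors 5 and 6 below it. The list had a median tumor SD of 1.89, and 21 of its 25 genes passed as more spread in tumors. Myh4, the fast myosin heavy chain of type IIB fibers, was 8.04, 10.55, 4.68, 9.03, 4.25, 4.40 and 10.20 in tumors 1 to 7, against 12.95 ± 0.02 in quadriceps and 5.10 ± 0.52 in aorta (SD, n = 4 each), and its deviation was 2.48 ± 0.27 (SE) larger in tumors (limma, adjusted p = 9.9e-05). Atp2a1, the calcium pump of fast fibers, was 10.53, 10.99, 8.37, 9.90, 5.17, 5.59 and 10.64, and Ttn, which encodes the sarcomeric spring titin, was 4.67 in tumor 5 and 10.87 in tumor 2. Myod1, the regulator of muscle precursor cells, varied least of the list, between 5.63 and 7.02 (limma, adjusted p = 0.78 for its spread). Of 14 heart muscle genes 1 passed, against 12.1% of all genes. It was Sln, an inhibitor of the calcium pump that atrial and slow muscle make. Myh7, the slow myosin heavy chain, was 8.45 in tumor 1, above 6.45 in tumor 2, the next tumor.

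**Figure D2:**
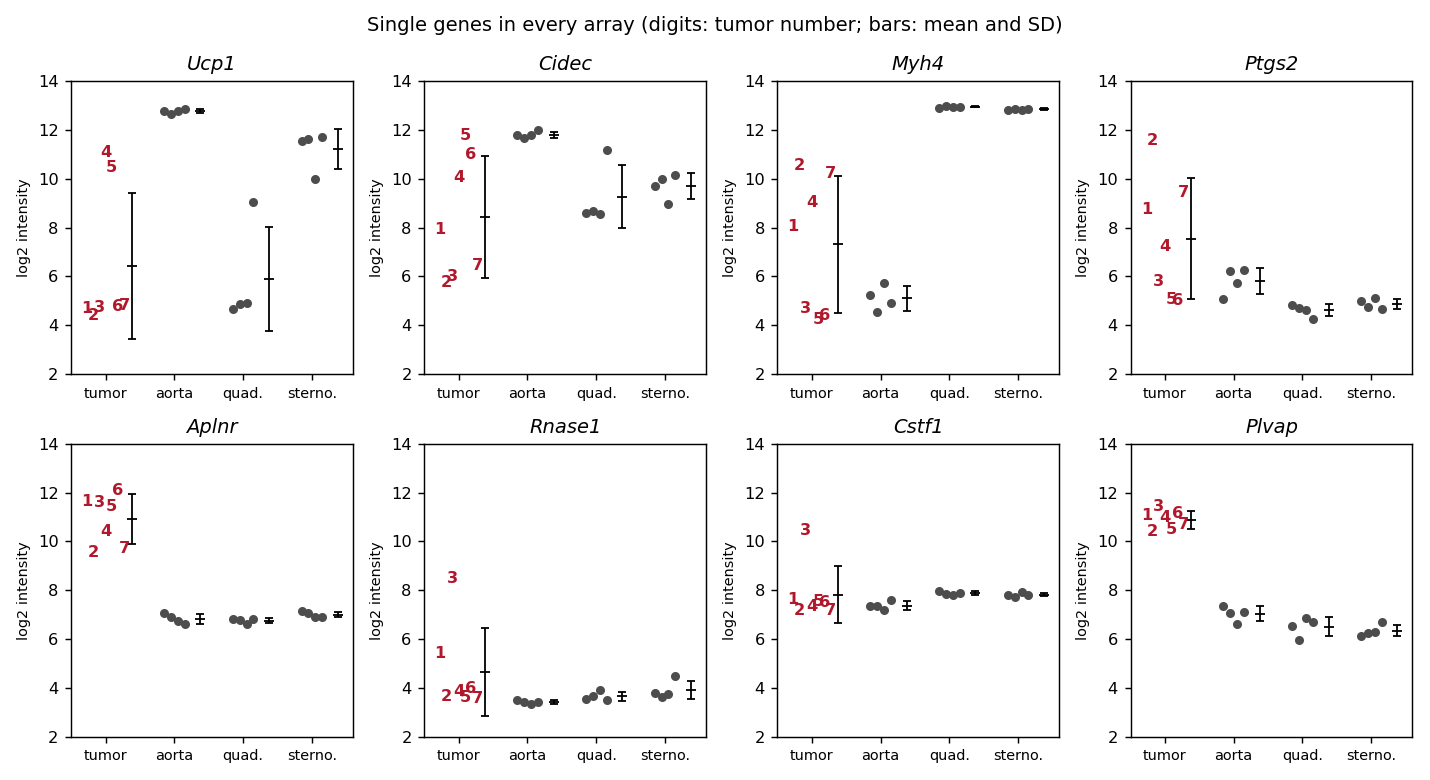
Log2 intensity of 8 genes in every array, with digits for tumors 1 to 7, dots for the 4 arrays of each normal group, and bars for the mean and SD of each group. Ucp1 is high in tumors 4 and 5 alone among the tumors, Cidec in tumors 4, 5 and 6, Myh4 in tumors 1, 2, 4 and 7, Cstf1 and Rnase1 in tumor 3, while the 7 tumors lie together, above all normal arrays, for Plvap.

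The promoters of the muscle list were searched for the E-box that muscle regulators of the MyoD family bind, CAGCTG, in the 250 bases before the RefSeq start of the gene, on both strands (the letters read the same on each). It occurred in 10 of 18 skeletal muscle genes with a listed promoter (55.6%), in 3 of 16 general adipocyte genes (18.8%) and in 12.2% of 16990 promoters. Such a match is a description of the letters and not a bound site. The promoter of Atp2a1, the most variable gene of the list after Myh4, is shown as an example with a match, on the minus strand of GRCm38.p6 at chr7:126463074-126463323 (RefSeq), with the E-box in capitals.

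Atp2a1: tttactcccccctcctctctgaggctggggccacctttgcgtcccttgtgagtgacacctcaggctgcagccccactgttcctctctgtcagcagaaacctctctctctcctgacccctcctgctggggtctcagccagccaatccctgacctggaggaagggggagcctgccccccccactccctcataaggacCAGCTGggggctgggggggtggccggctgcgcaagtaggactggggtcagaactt

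Blood and inflammation genes formed the next sets. Of 10 platelet genes 9 passed as more spread in tumors, and their mean was 10.15, 8.32, 8.12, 9.03, 7.23, 7.33 and 10.42 in tumors 1 to 7, against 5.61 in quadriceps. Tumors 1 and 7 were thus highest and tumors 5 and 6 lowest, all above the mean of aorta. Itgb3, the integrin chain that binds fibrinogen on platelets and is also made by endothelium, ranged from 7.38 in tumor 6 to 11.18 in tumor 7. Clec1b, the platelet receptor for podoplanin, ranged from 5.08 in tumor 6 to 9.01 in tumor 7. Ppbp, a platelet chemokine, varied about as much in the normal groups as in the tumors (pooled SD 0.96 and tumor SD 0.97; limma, adjusted p = 0.86).

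Neutrophil and cytokine genes were highest in tumor 2. Retnlg, a secreted protein of neutrophils, was 7.50, 10.74, 7.70, 4.65, 4.79, 3.84 and 6.03 in tumors 1 to 7, against 3.72 ± 0.21 (SD, n = 4) in aorta, with a deviation 1.89 ± 0.37 (SE) larger in tumors (limma, adjusted p = 0.0044). S100a8, a calcium-binding protein of neutrophils, was 8.19 in tumor 2 and 3.93 in tumor 6. Cxcl2, a chemokine that draws neutrophils, was 10.14 in tumor 2 and at most 6.95 in the others. Of 18 neutrophil genes 11 passed as more spread in tumors, whereas Mpo and Camp, made by immature neutrophils, stayed near the normal level in every tumor, with SDs of 0.19. Il6, a cytokine of inflammation, was lowest in tumor 5 (3.33) and highest in tumor 2 (7.25), and 7 of 20 cytokine and chemokine genes passed. Ptgs2, the cyclooxygenase that makes prostaglandins, was 8.75, 11.58, 5.80, 7.21, 5.05, 5.0 and 9.42 in tumors 1 to 7, against 5.81 ± 0.55 (SD, n = 4) in aorta, with a deviation 1.90 ± 0.35 (SE) larger in tumors (limma, adjusted p = 0.0028). Tumor 2 was also apart in erythroid genes, with a list mean of 6.95 and at most 5.56 in the other tumors, although none of the 8 passed the test of spread with limma (3 at an unadjusted p below 0.05). Slc4a1, the anion exchanger of red cells, was 11.41 in tumor 2 and at most 8.35 in the others.

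Genes that respond to low oxygen were high in tumors 2 and 7. The mean of 22 hypoxia and glycolysis genes was 8.63, 9.52, 7.85, 8.50, 8.31, 7.93 and 9.40, against 8.58 in aorta, and 15 passed as more spread in tumors. Vegfa, the growth factor for endothelium, was 9.03, 10.02, 6.19, 8.61, 9.04, 8.39 and 10.09 in tumors 1 to 7, lowest in tumor 3. Aorta had 10.02 and quadriceps 9.43, so that tumor 3 lay far below both normal tissues and tumors 2 and 7 at the aortic level. Its deviation was 0.84 ± 0.26 (SE) larger in tumors (limma, adjusted p = 0.042). Slc2a1, the glucose transporter of hypoxic cells, was 11.51 in tumor 2, 10.94 in tumor 7 and 8.58 to 9.95 in the others. Car9, another target of the hypoxia factors, stayed between 5.12 and 5.51. This is near the array medians of 5.35 to 5.48, so its evenness says little.

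Matrix genes were highest in tumor 7. Mmp13, a collagenase, was 8.35, 6.12, 7.70, 5.94, 7.21, 5.68 and 10.70 in tumors 1 to 7, against 4.02 ± 0.07 (SD, n = 4) in aorta, so that every tumor was above aorta while they differed among themselves. Of 19 genes of matrix proteases and their inhibitors 16 passed as more spread in tumors. Timp1, an inhibitor of these enzymes, ranged from 8.29 in tumor 5 to 11.40 in tumor 2. Tnc, the matrix protein tenascin C, was lowest in tumor 5 (8.75) and highest in tumor 7 (11.87), and Sparc, a collagen-binding protein, stayed between 11.77 and 12.03. The fibroblast and collagen list was 11.12 in tumor 7 and 9.72 to 10.52 in the other tumors, with 8 of 19 genes passing.

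**Figure D3:**
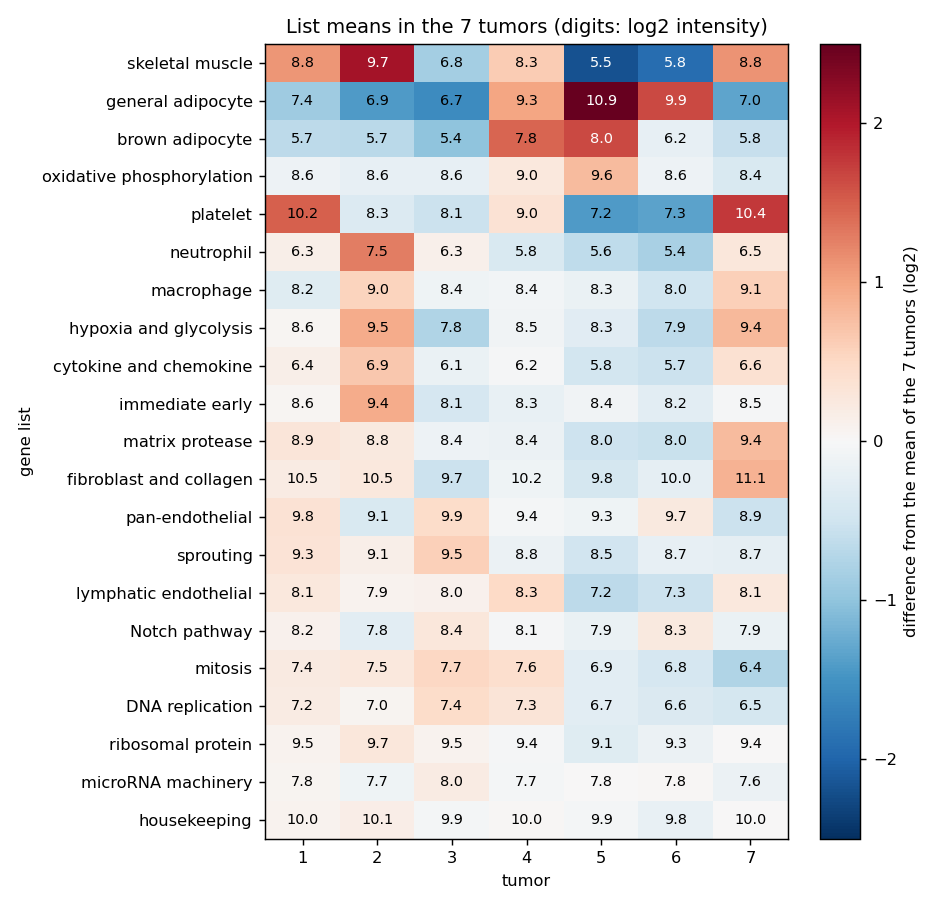
Mean log2 intensity of 21 gene lists in tumors 1 to 7; digits give the mean and colors its difference from the mean of the 7 tumors for that list. Skeletal muscle and platelet genes are low in tumors 5 and 6 where general adipocyte genes are high, and the ribosomal protein, microRNA machinery and housekeeping lists are nearly even.

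Macrophage genes were highest in tumors 2 and 7, with list means of 9.04 and 9.08 there, 7.99 to 8.41 in the other tumors and 6.78 in aorta. Of the 22 genes 5 passed as more spread in tumors, a share near the 23.9% of the decile of genes with a median tumor mean of 8.21. None of 18 T and NK cell genes, 11 B cell and plasma cell genes and 8 MHC class II genes passed with limma at the adjusted threshold, in either direction, and at an unadjusted p below 0.05 the numbers were 2, 1 and 0. The test compares with the normal groups, so a gene without a call may still vary among tumors. The median SD of the B cell and plasma cell list was 0.40 in tumors and 0.73 in the normal groups. Its mean was 4.98 to 5.04 in tumors 1 to 3 and 5.52 to 6.07 in tumors 4 to 7. The mean of the MHC class II list was 7.03 to 7.21 in tumors 1 to 3 and 7.58 to 7.91 in tumors 4 to 7. Mcpt4, a mast cell protease, was 7.65 in tumor 5, 6.23 to 6.37 in tumors 1, 4 and 6 and at most 3.95 in tumors 2, 3 and 7 (limma, adjusted p = 0.0019 for its spread). Smooth muscle genes were highest in tumor 6, at a list mean of 8.13 against 7.50 to 7.74 in the other tumors and 9.28 in aorta. Cnn1, a contractile protein of smooth muscle, was 9.83 in tumor 6 and Myh11, its myosin, 9.95.

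Endothelial genes varied unevenly. Of the 31 pan-endothelial genes 16 passed as more spread in tumors, with a median tumor SD of 0.42. Gpihbp1, which carries lipoprotein lipase across capillary endothelium, was 9.56, 8.72, 9.93, 7.37, 9.45, 9.47 and 6.37 in tumors 1 to 7, against 8.92 in aorta, with a deviation 1.01 ± 0.21 (SE) larger in tumors (limma, adjusted p = 0.0057). It was thus below aorta in tumors 2, 4 and 7 and above it in the others. Vwf, the clotting factor stored in endothelium and platelets, ran from 7.10 in tumor 6 to 9.52 in tumor 7. Robo4, an endothelial guidance receptor, ran from 7.90 in tumor 7 to 10.45 in tumor 6. Cdh5, which encodes VE-cadherin, ran only from 11.55 to 12.30 (limma, adjusted p = 0.24 for its spread), above its mean of 9.94 in aorta in every tumor.

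Among 20 sprouting genes 11 passed as more spread in tumors. Aplnr, the apelin receptor, was 11.65, 9.54, 11.60, 10.42, 11.45, 12.09 and 9.73 in tumors 1 to 7, against 6.82 ± 0.19 (SD, n = 4) in aorta, so that all tumors were above aorta and tumors 2 and 7 were lowest. Its deviation was 0.83 ± 0.11 (SE) larger in tumors (limma, adjusted p = 0.00033). Its ligand Apln ranged from 8.89 to 10.30 and did not pass (limma, adjusted p = 0.60). Esm1, secreted by tip cells at the front of a sprout, was 9.12 in tumor 3 and at most 6.42 in the other tumors. Dll4, the Notch ligand of tip cells, was 8.71 to 9.19 in tumors 1 to 4 and 7.02 to 8.02 in tumors 5 to 7, again the division of the numbers in their names. Nid1, a basement membrane protein, varied least, between 10.91 and 11.32.

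Lymphatic markers did not move as a block. Prox1, the regulator of lymphatic endothelium, was 8.13 in tumor 4, 6.97 in tumor 6 and 5.37 to 5.88 in the others. Lyve1, a hyaluronan receptor of lymphatic endothelium and some macrophages, was 10.61 in tumor 4 and 7.87 in tumor 5. Nts, which encodes the peptide neurotensin, was 8.64 in tumor 1, 8.55 in tumor 3 and 4.81 in tumor 6, with a deviation 1.39 ± 0.16 (SE) larger in tumors (limma, adjusted p = 9.9e-05). Of 11 lymphatic endothelial genes 6 passed.

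Grouping the 500 genes of largest tumor SD by their correlation across the 7 tumors gave 6 clusters, which describe these values and were not tested. Cluster 1 held 220 genes, among them 23 of 25 skeletal muscle genes, 8 of 10 platelet genes, 6 of 22 hypoxia genes and 5 of 18 neutrophil genes. Under complete linkage the cluster with most skeletal muscle genes held 16.8% of the 500 genes, in place of 44%. The mean profile of cluster 1 was highest in tumor 2 (1.48 above the mean of the tumors) and lowest in tumors 5 (-1.32) and 6 (-1.31). Cluster 2 held 205 genes, with 19 of 21 general adipocyte genes and 7 of 14 brown adipocyte genes, and its mean profile was highest in tumor 5 (2.12). Cluster 3 held 40 genes with a mean profile highest in tumor 3 (1.71), although single members such as Kcne3 and Mir335 were highest in tumor 1. Its leading genes were Efnb2, the arterial ephrin ligand, Dcbld1, a membrane protein, Lpin3, a phosphatidate phosphatase, and Mir1949. The cluster also held Eif2s3y, Kdm5d and Uty of the Y chromosome, and Cstf1, Aurka and Zfas1 of the chromosome 2 run described below. Efnb2 was 8.39, 7.71, 9.62, 7.05, 6.62, 6.05 and 6.97 in tumors 1 to 7, against 7.09 ± 0.05 (SD, n = 4) in aorta. Cluster 4 held 28 genes with a mean profile lowest in tumors 2 (-1.26) and 7 (-1.19), with Aplnr, Gpihbp1, Sox18, an endothelial transcription factor, and Meox2, a homeobox factor of vessels and muscle, among them. Meox2 was 8.98, 7.13, 9.64, 8.77, 9.78, 10.39 and 7.75, against 7.69 ± 0.28 (SD, n = 4) in aorta. Cluster 5 held 5 genes high in tumor 4, among them Prox1, Itih4, Cldn4 and Tslp, and cluster 6 held Plagl1 and Foxf1, both transcription factors. Tslp, a cytokine of epithelial and stromal cells, was 9.03 in tumor 4 and 5.48 to 6.47 elsewhere. Plagl1, an imprinted gene, was 8.89, 6.20, 6.05, 6.38, 8.70, 7.68 and 8.09 in tumors 1 to 7, against 5.83 in aorta.

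**Figure D4:**
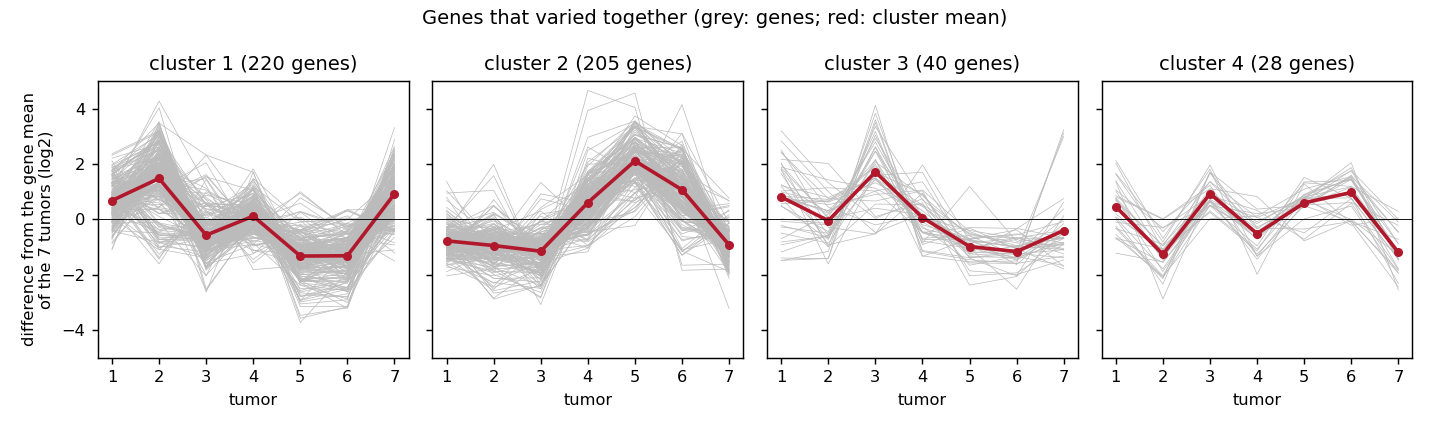
Difference of each gene from its mean over the 7 tumors (log2) for the 4 largest clusters, with genes in grey and the cluster mean in red. The mean of cluster 1 is lowest and that of cluster 2 highest in tumors 5 and 6, that of cluster 3 is highest in tumor 3, and that of cluster 4 is lowest in tumors 2 and 7, while single genes depart from these means.

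A principal component analysis used all genes, each centred on its tumor mean but not scaled. Genes of large SD weigh most in it, so it is no separate evidence for the clusters. The leading component held 43.1% of the variance among the tumors, from -43.7 in tumor 2 and -28.5 in tumor 7 to 40.4 in tumor 6 and 56.8 in tumor 5. The next component held 21.2% and set tumor 3 (50.3) apart from tumor 2 (-25.4). The one after it held 12.3% and set tumor 7 (36.3) against tumor 2 (-30.8).

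Genes of cell division differed by less and in another order. The mean of 30 mitosis genes was 7.43, 7.46, 7.71, 7.62, 6.93, 6.77 and 6.45 in tumors 1 to 7, so that tumors 5 to 7 were lowest, and all lay above the 5.09 of aorta. The division is that of the numbers in the tumors' names, and its cause was not tested. Cdk1, the kinase that starts mitosis, was 9.67, 9.82, 9.89, 9.49, 8.42, 7.84 and 7.84, against 5.50 in aorta, with a deviation 0.63 ± 0.10 (SE) larger in tumors (limma, adjusted p = 0.00096). Kif11, the motor that separates spindle poles, was 7.67, 8.03, 8.30, 8.33, 7.16, 6.90 and 6.36. Of the 30 genes 15 passed, as did 11 of 27 DNA replication genes, whose mean ran from 6.55 in tumor 7 to 7.44 in tumor 3. Pcna, the sliding clamp of replication, did not pass and stayed between 9.41 and 9.91.

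Promoters of mitosis genes often hold a CCAAT box and the cell cycle homology element (CHR), whose letters are TTTGAA. Both strands were searched in the 250 bases before the start. CCAAT occurred in 22 of 26 mitosis genes with a listed promoter (84.6%) and in 35.6% of 16990 promoters. The CHR occurred in 9 of 26 (34.6%) and in 14.2% of all. With the 50 bases after the start included, it occurred in 20 of 26 (76.9%) and in 15.8%. Cdk1 and Kif11 are shown because they were the most variable genes of the list after Aurka, with both elements in capitals. Cdk1 lies on the minus strand at chr10:69352913-69353162 with 3 matches to the CCAAT box and 2 to the CHR, and Kif11 on the plus strand at chr19:37376132-37376381 with 1 of each (RefSeq, GRCm38.p6).

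Cdk1: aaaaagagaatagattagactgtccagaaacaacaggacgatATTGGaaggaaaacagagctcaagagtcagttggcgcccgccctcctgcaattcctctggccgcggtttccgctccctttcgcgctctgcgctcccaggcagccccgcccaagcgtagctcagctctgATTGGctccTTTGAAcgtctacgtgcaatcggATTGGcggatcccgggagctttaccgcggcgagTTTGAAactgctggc

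Kif11: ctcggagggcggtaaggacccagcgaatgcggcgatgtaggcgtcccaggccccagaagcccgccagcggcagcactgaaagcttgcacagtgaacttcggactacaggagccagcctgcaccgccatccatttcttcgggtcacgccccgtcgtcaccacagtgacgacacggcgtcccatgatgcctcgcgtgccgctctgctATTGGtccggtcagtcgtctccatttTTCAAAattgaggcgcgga

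A run of neighbouring genes on chromosome 2 was high in tumor 3 alone. The run was found after the data were seen, by taking medians over 15 neighbouring genes along each chromosome, and no test was made of it. Only genes whose tumor mean, tumor 3 included, was at least 5.35, the lowest array median, were used. They were 13371 of the 22109 genes with a position. From Ncoa3, a nuclear receptor coactivator, to Gm14322 it held 66 genes, of which 36 were at least 1 log2 unit above the median of the tumors in tumor 3 and 14 at least 2. Its ends were set at genes at least 1 above in tumor 3, with steps of up to 12 genes between them. These counts thus follow in part from how the run was drawn and describe it only. The median difference in the run was 1.33 in tumor 3 and between -0.14 and 0.02 in the other tumors. Of the 997 other genes of chromosome 2 that met the same brightness limit, 16 (1.61%) were at least 1 above in tumor 3, with a median difference of 0. The choice of the ends of the run favours this contrast. Cstf1, a factor of messenger RNA 3' end cleavage, was 7.61, 7.17, 10.46, 7.35, 7.53, 7.50 and 7.16 in tumors 1 to 7, against 7.38 ± 0.17 (SD, n = 4) in aorta. Aurka, a mitotic kinase, was 10.004 in tumor 3 and 6.85 to 7.61 in the other tumors, which made it the most variable mitosis gene. Cse1l, a nuclear export factor, was 2.28 above the median and Zfp217, a zinc finger factor, 1.87. Genes whose median over the tumors was at least 7 were more often high, 30 of 39, than dimmer genes, 6 of 27. Some members did not follow, such as Pck1, an adipocyte and liver enzyme of glucose synthesis (-0.97), Tubb1, the platelet tubulin (0), and Snai1, a transcription factor (0.18). No DNA was measured.

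**Figure D5:**
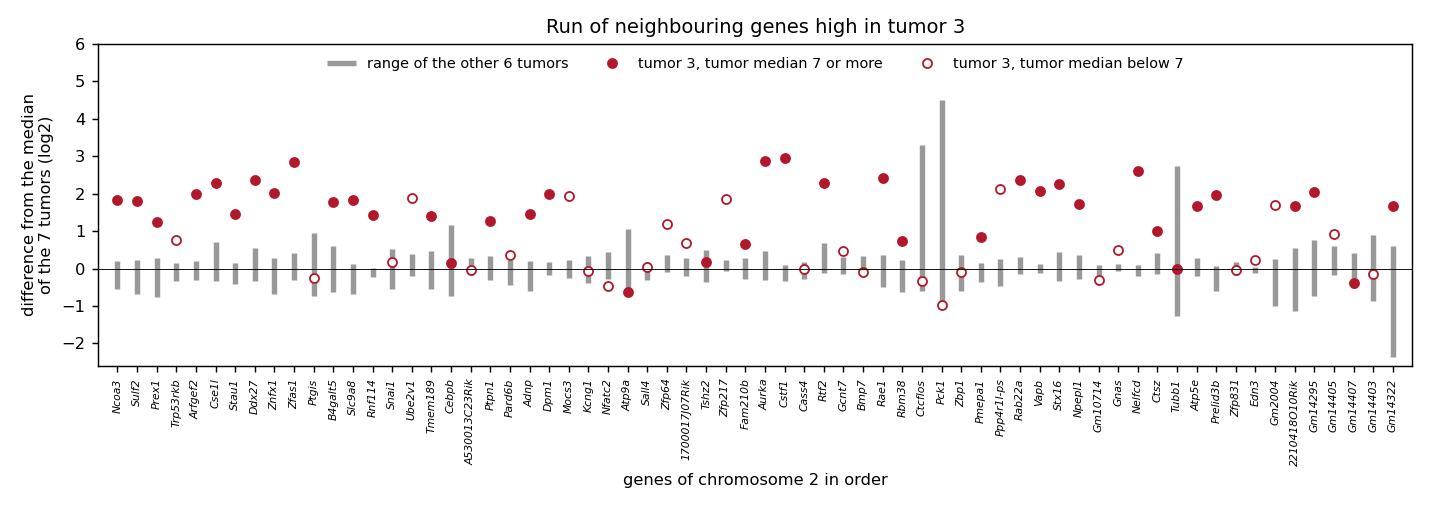
Difference from the median of the 7 tumors (log2) for 66 neighbouring genes of chromosome 2 in their order, dim genes left out. Tumor 3 is shown as circles (filled where the median over tumors is at least 7) and the range of the other 6 tumors as bars. In tumor 3, 36 of the 66 genes lie at least 1 above the median, with Cstf1 highest at 2.96.

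Medians over 15 neighbouring genes reached 1.81 in this run, while in the other tumors they stayed between -0.81 and 0.98 and in the normal arrays between -0.52 and 0.51. The next run was on chromosome 12 in tumor 7, from Rian, an imprinted non-coding RNA, to Mir453, with 16 genes of which 8 were at least 1 above the tumor median. Its genes and ends were chosen in the same way, dim genes left out. Its median difference was 1.01 in tumor 7, -0.62 in tumor 5, -0.68 in tumor 6 and -0.31 in tumor 2. Runs that overlap this stretch were also among the most extreme of several normal arrays, from -0.52 in quadriceps replicate 4 to 0.42 in quadriceps replicate 1. The stretch encodes many microRNAs, whose precursors Dicer cuts. A probe set for a microRNA gene on such an array may read the primary transcript or the precursor and is no measure of the mature microRNA.

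The mature sequences of the 6 microRNA genes shown are those of 3 members of the chromosome 12 stretch and of 3 other genes among the 500 most variable. Of the 19 microRNA genes used in that run or among the 500, 17 had a sequence in the RefSeq table. The seeds, bases 2 to 8, are in capitals, all 6 seeds differ, and all 6 sequences lie on the plus strand of GRCm38.p6. The positions are chr12:109712558-109712578 for miR-323-3p, chr12:109713541-109713562 for miR-329-3p, chr12:109733781-109733802 for miR-382-5p, chr6:30741314-30741336 for miR-335-5p, chr1:137966650-137966673 for miR-181b-5p and chr11:96265187-96265208 for miR-196a-5p.

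mmu-miR-323-3p: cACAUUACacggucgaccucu

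mmu-miR-329-3p: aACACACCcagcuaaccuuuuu

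mmu-miR-382-5p: gAAGUUGUucgugguggauucg

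mmu-miR-335-5p: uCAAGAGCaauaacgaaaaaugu

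mmu-miR-181b-5p: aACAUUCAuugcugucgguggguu

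mmu-miR-196a-5p: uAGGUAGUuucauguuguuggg

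Mir323 was 5.61, 4.46, 6.08, 5.80, 4.64, 4.80 and 7.53 in tumors 1 to 7, and Mir382 was lowest in tumor 2 (4.20) and highest in tumor 7 (6.96), as was Mir329 (5.88 and 8.36). These 3 neighbours had the same highest and lowest tumor, whereas Rian and Mir453 of the same stretch were lowest in tumor 6 and Mir666 was highest in tumor 2. Mir335, which lies in an intron of the imprinted gene Mest, was 5.96 in tumor 1 and 2.93 to 4.47 in the others. Mir181b-1 was 2.81 in tumor 2 and 5.47 to 7.04 in the others. Mir196a-1, a gene of the Hoxb cluster, was 7.12 in tumor 6 and 3.48 to 4.73 in the others. Mir335 and Mir181b-1 were both highest in tumor 1 and lowest in tumor 2, while Mir196a-1 was lowest in tumor 1.

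Hox genes, which record the position of a cell along the body, differed in a few members. Hoxc6 was 6.17, 6.17, 5.85, 6.26, 7.71, 7.82 and 7.66 in tumors 1 to 7, against 6.83 in aorta and 7.72 in quadriceps, with a deviation 0.65 ± 0.07 (SE) larger in tumors (limma, adjusted p = 0.0001). Hoxc8 gave 4.88 to 6.04 in tumors 1 to 4 and 6.98 to 7.74 in tumors 5 to 7. For both genes the division is that of the numbers in the tumors' names, and which of site, animal and handling goes with it cannot be told apart here. Of 35 Hox genes 6 passed, a share near the 12.1% of all genes.

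Sex-linked genes divided the tumors and each normal group. Eif2s3y, a translation factor gene of the Y chromosome, was 9.05 in tumor 3 and 8.05 in tumor 7 and at most 3.61 in the other tumors. Xist, the RNA that silences an X chromosome, was 8.97 in tumor 3 and 7.77 in tumor 7 and 11.83 to 12.33 in the others. In the 5 normal arrays with high Eif2s3y, Xist was 5.06 to 5.71, so that both tumors lay between these arrays and the 7 others (10.59 to 11.52). Uba1y, also on the Y chromosome, was 6.24 in tumor 7 and 4.02 in tumor 3. Xist was among the genes with a lower spread in tumors (difference in deviation -1.36 ± 0.44, SE; limma, adjusted p = 0.047), and its call was lost under 19 of the alternatives beside the other forms of deviation.

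Genes of lower spread in tumors were mostly dim there. The 160 genes had a median tumor SD of 0.10 against 0.31 in the normal groups and a median tumor mean of 4.68. Gdap1, a mitochondrial membrane protein, stayed between 3.86 and 4.15 in tumors, against 8.17 ± 0.67 in quadriceps and 8.29 ± 1.32 in sternocleidomastoid (SD, n = 4 each; spread adjusted p = 0.0002, limma). Mettl21c, a methyltransferase of muscle, stayed between 3.66 and 3.95 in tumors and had 8.33 ± 0.83 (SD, n = 4) in quadriceps. Its difference in spread was -0.64, but 0.014 against aorta alone (limma, adjusted p = 0.963). Neto2 changed sign too, from -0.62 to 0.32 against aorta alone (limma, adjusted p = 0.420).

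Many bright genes were nearly constant over the tumors. Tle3, a transcriptional corepressor, was 9.25 to 9.37 with an SD of 0.040, the lowest among the bright genes, against 7.99 ± 0.38 (SD, n = 4) in quadriceps. Nfic, a nuclear factor, had an SD of 0.047 and CYTB, the cytochrome b of the mitochondrial genome, one of 0.055. Gabarap, an autophagy protein, Cdc42 and Rhoa, GTPases of the cell skeleton, and Rpl28, a ribosomal protein, were also among the 10 most constant, each with an SD of at most 0.07. Of 18 ribosomal protein genes 1 passed as more and 1 as less spread in tumors. Of 15 genes of the microRNA machinery 5 passed as more spread, among them Drosha, which cuts primary microRNA transcripts, at 7.81 to 8.56. The median tumor SD of this list was 0.216, against 0.212 over all genes. In the decile of genes with a median tumor mean of 7.50, 21.5% passed as more spread.

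Genes that set all 7 tumors apart from all 12 normal arrays, by at least 2 log2 units from each normal group mean, numbered 169 above (0.762% of genes) and 58 below (0.261%). Without tumor 5 the latter count was 91. Plvap, a protein of endothelial fenestrae, was 11.06, 10.41, 11.43, 10.99, 10.50, 11.12 and 10.67 in tumors 1 to 7, against 7.03 ± 0.31 (SD, n = 4) in aorta, with a spread near that of the normal groups (limma, adjusted p = 0.59). Col4a1, a collagen of the basement membrane, was 10.01 to 10.75, Emp1, a membrane protein, 10.69 to 11.54, and Itga6, a laminin receptor, 10.22 to 11.16. Mest, an imprinted gene, went from 9.999 in tumor 7 to 11.90 in tumor 1, against 5.77 in aorta, and passed as more spread (limma, adjusted p = 0.017), as did Egfl7, a protein secreted by endothelium, at 10.11 to 10.90 (limma, adjusted p = 0.044). Among the low genes, Sdr39u1, a short-chain dehydrogenase, was 7.15 to 7.57 in tumors and 9.77 ± 0.13 (SD, n = 4) in aorta, and Perm1, a regulator of muscle metabolism, was 4.75 to 5.32 in tumors and 7.30 ± 0.28 (SD, n = 4) in aorta. These genes were chosen for lying on one side of all normal arrays in every tumor, which limits how far they can differ among the tumors.

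A single tumor stood apart from the rest in 39 of the 500 most variable genes (7.8%, against 7.66% of all genes). Rnase1, a secreted ribonuclease of endothelium, was 8.49 in tumor 3, 5.41 in tumor 1 and 3.55 to 3.98 in the others. Nrk, a kinase, was 9.57 in tumor 6 and 6.20 in tumor 5, and at most 4.57 elsewhere. Itih4, a plasma protein, was 8.62 in tumor 4 and 4.95 to 5.94 elsewhere. These genes were chosen for the gap.

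Whether gene groups varied together was asked for 153 pairs among 18 list means. No pair passed an exact two-sided permutation test over the tumors after Benjamini-Hochberg adjustment, and 24 had an unadjusted p below 0.05. Of these 24, 17 involved a list whose tumors fell into separate sets, such as the adipocyte lists, for which no coefficient is given. The 7 other pairs follow. Skeletal muscle and neutrophil means gave r = 0.823 (exact permutation p = 0.0169, adjusted 0.262) and rho = 0.929 (exact permutation p = 0.00675, adjusted 0.258), with r = 0.617 without tumors 5 and 6. Both lists were lowest in these tumors. Ribosomal protein and neutrophil means gave r = 0.900 (exact permutation p = 0.00794, adjusted 0.262) and rho = 0.857 (exact permutation p = 0.0238, adjusted 0.373), with r = 0.892 without tumors 2 and 5. Fibroblast and platelet means gave r = 0.788 (exact permutation p = 0.0325, adjusted 0.262) and rho = 0.786 (exact permutation p = 0.0480, adjusted 0.387), with r = 0.709 without tumors 3 and 7. Ribosomal protein and skeletal muscle means gave r = 0.835 (exact permutation p = 0.0135, adjusted 0.262) and rho = 0.821 (exact permutation p = 0.0341, adjusted 0.373), with r = 0.566 without tumors 2 and 5. The interferon list joined a further 2 of these pairs, in opposite directions. With oxidative phosphorylation it gave r = 0.750 (exact permutation p = 0.0355, adjusted 0.272) and rho = 0.964 (exact permutation p = 0.00278, adjusted 0.258), with r = 0.866 without tumors 4 and 5. With neutrophil genes it gave r = -0.789 (exact permutation p = 0.0306, adjusted 0.262) and rho = -0.821 (exact permutation p = 0.0341, adjusted 0.373), with r = -0.868 without tumors 2 and 6. Sprouting and T and NK cell means gave r = -0.808 (exact permutation p = 0.0321, adjusted 0.262) and rho = -0.786 (exact permutation p = 0.0480, adjusted 0.387), with r = -0.610 without tumors 1 and 3. The sets of tumors 1 to 4 and 5 to 7 are too small for a coefficient each.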

How the data were processed

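RNA of 19 mouse samples was measured on Affymetrix arrays, 1 array each. Per the labels, total RNA was extracted with the Qiagen miRNeasy kit and biotin-labelled cRNA was hybridised. The deposited values, read from their range of 1.59 to 13.8 as log2 intensity, were used with no further scaling. Partek 6.6 is named in the submitters' processing notes; its role is unstated, and the normalization is not given in the sources used here.

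Of 41345 probe sets, 23521 had 1 gene symbol in the platform annotation, 1814 several and 16010 none. A gene was read from its brightest probe set by mean over all arrays, which left 22180 genes. All probe sets were kept, dim ones included, in the main comparison. The search for runs of neighbouring genes left out genes with a tumor mean below 5.35. Ddx3y was not analysed here.

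Spread was tested with limma 3.58.1 in R 4.3.3 (lmFit, eBayes, two-sided) on absolute deviations from the group mean, times the square root of n/(n - 1), over 4 groups. The threshold was an adjusted p of 0.05 (Benjamini-Hochberg). The procedure was tested on simulated data. Clusters used average linkage on 1 minus r. Tables were made with Python 3.11.15, pandas 2.3.3, numpy 2.4.6 and scipy 1.17.1, figures with matplotlib 3.10.9. Neighbouring genes and sequences came from RefSeq tables (GRCm38.p6), matched by symbol.

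Named genes were a small set given as values (Dicer1, Fabp4, Xist, Mki67, Pecam1), the 20 of largest tumor SD, the 10 largest and 6 most negative differences in spread, the 10 most constant bright genes, the 12 highest and 8 lowest common tumor genes, the 8 most variable in all groups, 2 per tumor by gap, 4 per cluster, and the most and least variable members of each list. Members and lists were chosen with earlier results of these data known. Alternatives were other scalings, filters, probe set rules, forms of deviation, comparison groups and sets of arrays.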

Additional observations from a re-analysis of the deposited data

Results flagged for a closer look

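In these results the highest or lowest of the 7 tumors was separated from the nearest other tumor by a gap, as a share of the range of all 7, above Dixon's 95% critical value. Chance gives such a gap in about 1 in 20 groups. It was met by 5 of 38 list means and by 3 of 84 named genes that were not chosen for a gap. Over all 22180 genes 7.66% met it, so the share among these named genes was no higher than that.

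Tumor 6 was highest in the smooth muscle list mean, at 8.13 against 7.74 in the nearest other tumor. It was also highest in the keratinocyte list mean (5.36 against 5.04) and in the mesothelial list mean (6.09 against 5.49). Aorta was higher still in both, at 5.42 and 6.39, and 14 of the 17 keratinocyte genes had a tumor mean below 5.35. The members of these lists that were high in tumor 6 included the keratins Krt18 (8.11), Krt19 (7.41) and Krt17 (5.99), while Upk3b and Msln, markers of mesothelium, were 5.55 and 4.50 there, within the range of the other tumors. Lrrc32, a receptor that holds latent TGF-beta, was 9.95 in tumor 6 against 9.36.

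Tumor 2 was highest in the erythroid list mean, at 6.95 against 5.56, and in the immediate early list mean, at 9.42 against 8.56. The latter list holds genes such as Fos and Atf3 that respond within minutes to a stimulus, tissue handling included, and Fos was 9.16 in tumor 2.

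Tumor 3 was highest for Neto2, at 6.69 against 5.13, and lowest for Myo5c, at 5.06 against 5.596.

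Of 14 genes that were chosen for a gap between a single tumor and the next, 10 passed the same limit, and these were chosen for that gap. They were Dmbt1 in tumor 1 (6.28), Cxcl2 (10.14) and Rgs1 (9.05) in tumor 2, Rnase1 (8.49) and Cstf1 (10.46) in tumor 3, Itih4 (8.62) and Tslp (9.03) in tumor 4, Nrk (9.57) and Fgg (6.44) in tumor 6, and Uba1y in tumor 7 (6.24).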

How the results depend on the processing

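The count of genes with a higher spread among tumors, 2674, was 1 with deviations from the group median, 166 with squared deviations, 493 against aorta alone and 774 at an adjusted p of 0.01. It ran from 2072 to 3313 without single arrays, and from 2041 to 3524 under the other alternatives run. The genes called were not all the same: 1894 of the 2674 still passed without tumor 5, and 1642 with tumors 1 to 4 and 5 to 7 centred separately. The count with a lower spread, 160, was 4, 19 and 34 under the median, squared and 0.01 settings, 100 with arrays centred on the housekeeping list, 74 without dim genes, and 108 to 171 without single arrays. The genes that passed under deviations from the median were Kcne3 (higher) and Gdap1, Mettl21c, 1700029P11Rik and B230312C02Rik (lower), named after their values were seen. Against aorta alone the difference in spread reversed for Mettl21c (0.014) and Neto2 (0.32). Of 16 named genes past the threshold, 14 were lost under deviations from the median, 12 under squared deviations and 10 under some other alternative.

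The median tumor SD, 0.212, was 0.243 with housekeeping centring, 0.261 without dim genes, 0.185 with tumors 1 to 4 and 5 to 7 centred separately and 0.200 to 0.218 without single tumors. Without single arrays it was 0.138 to 0.155 in aorta, 0.122 to 0.141 in quadriceps (0.164 with housekeeping centring) and 0.142 to 0.150 in sternocleidomastoid (0.143 without dim genes). The leading component held 37.2 to 52.3% without single tumors. Pairs of list means past the threshold, 0, were 1 with housekeeping centring (neutrophil and interferon, r = -0.923) and 2 with the sets of tumors centred separately (general adipocyte and interferon, skeletal muscle and fibroblast), and 0 without single tumors. The cluster of skeletal muscle held 44% of the genes, 16.8% under complete linkage and 31.2 to 49.6% without single tumors. That of the adipocyte list held 41%, and 26 to 51.4% without single tumors, lowest without tumor 5. Lists with a median tumor SD at least 2 times that of all genes, 24, were 17 without dim genes, 19 with housekeeping centring and 22 to 25 under the other alternatives run, single tumors left out included. Common tumor genes numbered 148 to 203 above and 51 to 91 below without single arrays, and 91 below with housekeeping centring. The cause of these shifts was not tested. Dim probe sets limit what can be said: 0.406% of genes in the dimmest decile passed with a higher spread, against 26.8% in the brightest. No paired analysis was possible because the labels carry no replicate numbers that groups share.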
